A study of Mus musculus with 2 samples.

Results

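The 7 genes Trnp1, Inpp4b, Acsl6, Mtmr9, Gm42047, Gm6133 and Usp50, of 31053 genes in the count tables, were picked because their levels differed between a GATA-1 knock-in and a wild-type library of mouse bone marrow progenitors, some of them to near absence from 1 library. That choice used the levels in these same libraries, so the differences below are a description and carry no test. The study asked how cell populations and gene expression in the marrow differ between mice with a knocked-in GATA-1 mutation (KI), which the series title calls 2RA, and wild-type mice (WT). Each genotype was 1 library of cells sorted as Lin- Kit+, which lack markers of mature lineages and carry the Kit receptor, profiled with a droplet 3' kit that marks each captured RNA molecule with a unique molecular identifier (UMI). Strain, age, sex, the number of animals and whether the mutation was on 1 or all copies of the gene are not given in the sources used here. With 1 library per genotype, the effect of the genotype cannot be told apart from a difference between animals, sorts or libraries.

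GATA-1 is a transcription factor that binds short DNA motifs with the core GATA and is needed for the maturation of red cell and megakaryocyte precursors and for mast cells and basophils. Red cell precursors raise heme, globin and membrane genes as they mature and lose genes of the earlier progenitors, so a gene restricted to them can also be restricted to early or late stages within them. The 7 genes belong to no common pathway: they include a nuclear protein, a lipid phosphatase and its relative, an enzyme that activates fatty acids, a ubiquitin protease, a ribosomal protein retrocopy and a long noncoding RNA.

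The KI library held 48005467 UMIs in 6640 barcodes and the WT library 70543211 UMIs in 7471 barcodes. After filtering, 5492 KI cells and 5490 WT cells remained, with a median of 5279 UMIs in KI and 9623.5 UMIs in WT, and 5 barcodes occurred in both. Clusters were named from marker genes into 7 classes with at least 100 cells in each library, and each class is named only for its likeness to those markers. The erythroid class held 3246 KI cells and 2400 WT cells, with all 16 of its markers found in the files detected in both libraries and a summed marker level of 8446 CPM in KI and 7285 CPM in WT (CPM being the UMIs of a gene scaled by all UMIs of that library and class). In 3 of its clusters, which held 1766 KI cells and 773 WT cells, no erythroid marker stood above the rest of the cells by more than 0.5 on the log2 scale. The name rests there on the share of markers nearer to the highest than to the lowest cluster, 0.5 in clusters 2 and 22 and 0.714 in cluster 3. An unnamed cluster led by T cell genes had a share of 0.643, so this share alone does not mark erythroid cells. The largest of the 3 clusters, cluster 3, with 1454 KI cells, had a summed erythroid marker level of 2556 CPM in KI, above the 994 CPM of KI stem and multipotent cells and below the erythroid class as a whole. Gata1 itself stood at 139 CPM in KI and 147 CPM in WT erythroid cells, and a count of its molecules does not show which allele they carry. Free RNA from broken cells was not removed: the neutrophil protease gene Elane, used as a gauge of it, stood at 29.0 CPM in KI and 93.1 CPM in WT erythroid cells, and the summed level of the 10 neutrophil markers there at 50.1 CPM in KI and 114.5 CPM in WT. Its part in the results below was not tested.

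Over all cells, 4 of the 7 genes were higher in KI and 3 were lower, by the rule that the exact 95% interval of the ratio excludes no difference. By the same rule 33.9% of the 13499 genes measured were higher in KI and 20.5% were lower, and since the genes were chosen on this contrast their count says nothing further. The interval lay wholly past 4-fold for Trnp1 and Inpp4b, which were higher in KI, where 0.245% of 10598 genes with at least 100 UMIs did so, and for Acsl6, Gm42047 and Usp50, which were lower in KI, where 0.245% did so too. All intervals cover counting error only. Near absence from 1 library described Gm42047 (0 UMIs in KI, 1695 UMIs in WT), Trnp1 (285 UMIs in KI, 6 UMIs in WT) and Acsl6 (15 UMIs in KI, 282 UMIs in WT). It did not describe Inpp4b (630 UMIs in KI, 111 UMIs in WT), Mtmr9 (845 UMIs in KI, 587 UMIs in WT), Gm6133 (1597 UMIs in KI, 719 UMIs in WT) or Usp50 (692 UMIs in KI, 6105 UMIs in WT), which were detected at 100 UMIs or more in both libraries.

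Acsl6 was found almost only in erythroid cells and Trnp1 almost only in erythroid and basophil and mast cells, and they differed in opposite directions, so their promoters are shown. The windows below run from 250 bases before to 50 bases after the transcription start of the RefSeq annotation (GRCm38.p6, the same assembly as mm10). They were read for the motif AGATAA, the motif AGATAG, the motif TGATAA and the motif TGATAG on both strands, forms that GATA factors are known to prefer, and a match is in capitals. The Trnp1 window is chr4:133498501-133498800 on the minus strand and the Acsl6 window, of the most upstream of its 3 annotated starts, is chr11:54303574-54303873 on the plus strand.
Trnp1: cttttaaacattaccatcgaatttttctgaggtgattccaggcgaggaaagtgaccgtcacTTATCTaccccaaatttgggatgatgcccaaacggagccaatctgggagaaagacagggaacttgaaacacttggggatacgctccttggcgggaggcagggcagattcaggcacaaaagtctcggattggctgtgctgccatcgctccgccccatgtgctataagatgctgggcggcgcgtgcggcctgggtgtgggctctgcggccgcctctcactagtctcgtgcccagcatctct
Acsl6: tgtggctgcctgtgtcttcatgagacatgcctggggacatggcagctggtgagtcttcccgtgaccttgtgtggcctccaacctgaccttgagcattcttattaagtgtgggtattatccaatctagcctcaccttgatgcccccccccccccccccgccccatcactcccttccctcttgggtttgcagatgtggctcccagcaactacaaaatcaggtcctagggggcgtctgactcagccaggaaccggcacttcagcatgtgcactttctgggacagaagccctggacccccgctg
Trnp1 had 1 match, at 189 bases before the start, which is AGATAA read on the opposite strand. The other 2 Acsl6 windows, and those of Inpp4b and Usp50, had no match, as for the Acsl6 window shown. Of 32851 promoter windows of 300 bases in the table, 29.8% held at least 1 of these motifs. Sequences for 4 of the 7 genes were in the table, and the 3' counts do not show which start a molecule came from.

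Trnp1 (ENSMUSG00000056596, chr4:133491100-133498550, minus strand), which encodes a nuclear protein known from the proliferation of neural progenitors, was higher in KI and confined, as far as was detected, to erythroid and basophil and mast cells. KI erythroid cells had 270 UMIs of Trnp1, or 8.96 CPM, against 2 UMIs, or 0.06 CPM, in WT erythroid cells. The log2 ratio of KI over WT was 7.34 (95% interval 5.47 to 10.39), and it ranged from 6.72 to 8.46 over 12 alternative settings. With 2 UMIs in WT, counting error leaves the size of the ratio wide. Without the 3 clusters in which no marker was raised, a choice made after seeing the data, Trnp1 had 118 UMIs in KI and 1 UMI in WT (7.41, 4.90 to 12.7). In basophil and mast cells KI had 13 UMIs, or 14.7 CPM (7.84 to 25.2), and WT 2 UMIs, or 1.62 CPM, a log2 ratio of 3.19 (1.04 to 6.38) that was 2.22 without the 2 cells of each library that held the most Trnp1. In the other 5 classes no KI cell had a UMI of Trnp1, and WT had 1 UMI in stem and multipotent cells and 1 in monocyte cells. Erythroid cells held 94.7% of the Trnp1 UMIs of KI, against 69.1% of all UMIs of KI, but their KI level, with an interval of 7.93 to 10.1 CPM, was not apart from that of KI basophil and mast cells. The log2 ratio was larger in erythroid cells than in the other named classes pooled by 4.41 (1.47 to 8.0). The mix of classes in that pool differed between the libraries, with monocyte cells at 6.59% of KI and 20.1% of WT cells. The intervals of this and the like differences below do not cover that.

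A UMI of Trnp1 was found in 6.93% of KI erythroid cells (exact binomial 95% interval 6.08% to 7.86%), against 0.08% of WT erythroid cells (0.01% to 0.30%), although the median depth was 6023 UMIs in KI and 13690 UMIs in WT. KI monocyte cells, at a median of 10836 UMIs, had none in 362 cells, which allows a share of up to 0.829% (3 cells of the total). In basophil and mast cells the share was 6.09% (3.19% to 10.4%) in KI and 0.966% (0.117% to 3.45%) in WT. With every cell thinned to 2000 UMIs the expected share was 2.91% in KI and 0.02% in WT erythroid cells, and 3.97% in KI and 0.55% in WT basophil and mast cells. No KI cell held more than 4 UMIs and no WT cell more than 1. The 270 UMIs of KI erythroid cells were spread over 225 cells.

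Inpp4b (ENSMUSG00000037940, chr8:81342556-82127914, plus strand) encodes a phosphatase that removes the 4-phosphate from phosphatidylinositol 3,4-bisphosphate, a product of phosphoinositide 3-kinase signalling. It was higher in KI in 5 of 7 classes, most of all in erythroid and neutrophil cells. KI erythroid cells had 401 UMIs, or 13.3 CPM, and WT erythroid cells 24 UMIs, or 0.66 CPM, a log2 ratio of 4.33 (3.73 to 4.99) that was 5.04 under a stricter cell filter. Without the 3 clusters in which no marker was raised it was 4.91 (3.83 to 6.25). In basophil and mast cells Inpp4b stood at 72.5 CPM in KI and 19.4 CPM in WT, the highest of the 7 classes in each library, and in megakaryocyte cells at 50.02 CPM in KI and 13.2 CPM in WT. The intervals of these 2 classes overlapped within each library. The log2 ratios there were 1.90 (1.20 to 2.64; 1.12 with each cell weighted equally) and 1.92 (1.23 to 2.67). Neutrophil cells had 12 UMIs in KI and 1 UMI in WT, a log2 ratio of 5.26 (2.51 to 10.68) that was 3.42 without the 2 cells with the most UMIs in each library. Monocyte cells had 11 UMIs in KI and 9 UMIs in WT, a log2 ratio of 2.08 (0.67 to 3.53).

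The interval for Inpp4b included no difference in stem and multipotent cells, with 21 UMIs in KI and 15 UMIs in WT (log2 ratio 0.78, -0.25 to 1.84), and in lymphoid-primed cells, with 14 UMIs in KI and 11 UMIs in WT (1.07, -0.18 to 2.35). Both came out higher in KI under some other groupings of the cells, 4 for stem and multipotent cells and 5 for lymphoid-primed cells, with ratios of 0.93 to 1.38 and 1.61 to 2.17. The difference was therefore not erythroid only. Against the other named classes pooled, it was larger in erythroid cells by 1.82 (1.10 to 2.58) on the log2 scale. The pooled log2 ratio, 2.51, lay above that of each class in the pool except neutrophil cells, whose 5.26 was above the erythroid ratio. The mix of classes in the pool thus enters this difference. A UMI was found in 11.2% of KI erythroid cells (10.2% to 12.4%) and 0.958% of WT erythroid cells (0.608% to 1.43%). The WT share was not separated from the 0.814% (0.373% to 1.54%) of WT monocyte cells, at median depths of 13690 UMIs and 12064 UMIs, and whether it reflects expression or free RNA was not tested. In KI the erythroid share stood above the 2.76% (1.33% to 5.02%) of monocyte cells, which were deeper, at a median of 10836 UMIs. Erythroid cells held 63.7% of the Inpp4b UMIs in KI and 21.6% in WT, against 69.1% of all UMIs in KI and 56.3% in WT.

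Acsl6 (ENSMUSG00000020333, chr11:54303798-54364756, plus strand) encodes a long-chain acyl-CoA synthetase, an enzyme that couples fatty acids to coenzyme A and is known from brain and red cell precursors. It was lower in KI and found in erythroid cells almost alone. KI erythroid cells had 15 UMIs, or 0.50 CPM, against 277 UMIs, or 7.65 CPM, in WT erythroid cells, a log2 ratio of -3.94 (-4.80 to -3.20). The other 6 classes together had 0 UMIs in KI and 4 UMIs in WT, so the difference could be measured in erythroid cells only, and how it compares with other classes could not be estimated. A UMI was found in 0.462% of KI erythroid cells (0.259% to 0.761%) and 9.71% of WT erythroid cells (8.55% to 10.96%), beside 0.271% of WT monocyte cells at a median of 12064 UMIs. Thinned to 2000 UMIs, the expected shares were 0.05% in KI and 1.03% in WT erythroid cells. An annotated antisense gene, Gm12224, overlaps Acsl6, and it had 0 UMIs in both libraries. Whether the counting used strand is not stated in the sources used here.

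**Figure D1:**
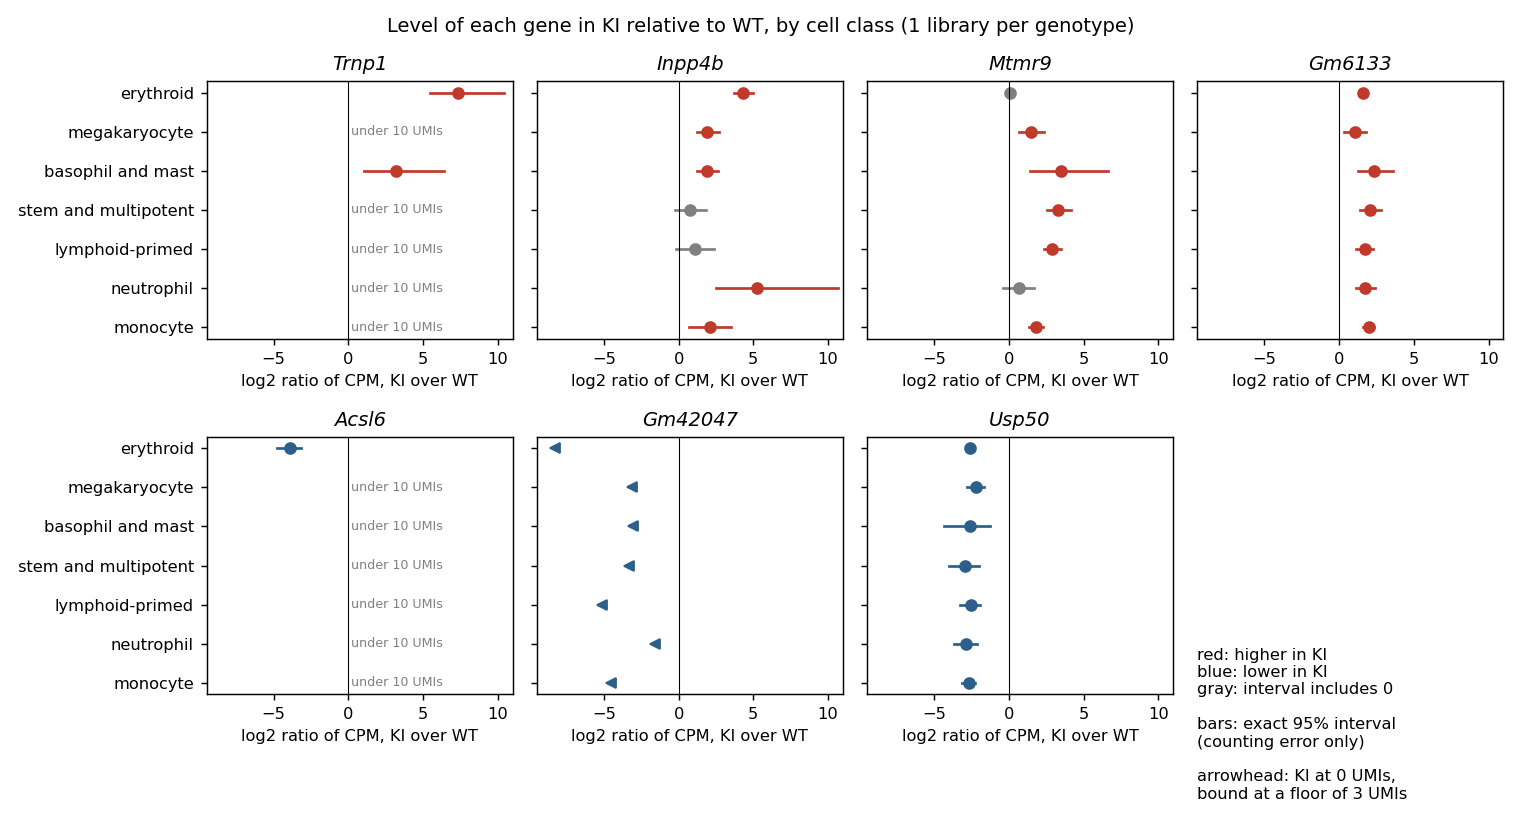
Log2 ratio of CPM, KI over WT, on the horizontal axis for each of the 7 genes in 7 cell classes, with exact 95% intervals of counting error as bars. Trnp1 and Acsl6 had 10 UMIs or more only in erythroid or basophil and mast cells, Mtmr9 sat at 0.05 in erythroid cells and 2.90 to 3.49 in 3 other classes, Gm6133 was above 0 and Usp50 below 0 in all 7 classes, and arrowheads for Gm42047 mark bounds at a floor of 3 UMIs.

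Gm42047 (ENSMUSG00000110631, chr8:121833247-121841178, plus strand), annotated as a long intergenic noncoding RNA, had no UMI in any KI cell and was found in all 7 classes of WT. The 1695 UMIs in WT made 26.4 CPM over all cells. Against a floor of 3 UMIs for the KI library the level was 383-fold lower in KI, and the 95% interval reached up to a log2 ratio of -8.28. By class, KI had 0 UMIs in each, while WT stood at 30.9 CPM in erythroid, 15.03 CPM in megakaryocyte, 28.3 CPM in basophil and mast, 16.0 CPM in stem and multipotent, 50.4 CPM in lymphoid-primed, 6.78 CPM in neutrophil and 17.9 CPM in monocyte cells. Lymphoid-primed cells were highest in WT, and their exact Poisson interval of 43.3 to 58.4 CPM did not overlap that of erythroid cells, 29.1 to 32.7 CPM. With the floor of 3 UMIs per library and class, the level was from 3.02-fold lower in KI neutrophil cells to 310-fold lower in KI erythroid cells. The 95% intervals reached up to log2 ratios of -1.20 and -7.98 there. These values depend on the depth of each class in KI and on its level in WT. The absence was thus in every class, not in erythroid cells only.

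A UMI of Gm42047 was found in 0 of 5492 KI cells, which allows a share of up to 0.0546% (3 cells of the total), and in 18.0% of WT cells (16.97% to 19.02%). In WT the share ran from 5.80% of neutrophil cells to 25.2% of erythroid cells as deposited, and from 1.20% of neutrophil cells to 6.68% of lymphoid-primed cells after thinning to 2000 UMIs. A single WT cell held 14 UMIs. The longest Gm42047 transcript shares stretches of at least 100 bases at 90% identity or more with 11 other annotated genes, so the level of this gene alone is uncertain. The longest such stretch is in Gm48362, 98.3% identical over 3209 bases, which had 0 UMIs in both libraries, while Gm47761 had 0 UMIs in KI and 10 UMIs in WT and Brip1os 965 UMIs in KI and 1472 UMIs in WT. Sos2, 92.6% identical over 352 bases at the 3' end of the transcript, had 809 UMIs in KI and 1023 UMIs in WT. An annotated protein-coding gene, Gm20388, overlaps Gm42047 on the same strand, and it had 0 UMIs in both libraries.

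Mtmr9 (ENSMUSG00000035078, chr14:63519651-63543982, minus strand) encodes a myotubularin without catalytic activity, which partners with active members of this family of phosphoinositide 3-phosphatases. It was higher in KI in 5 of 7 classes, and erythroid cells were not among them. KI erythroid cells had 343 UMIs, or 11.4 CPM, and WT erythroid cells 397 UMIs, or 10.97 CPM, a log2 ratio of 0.05 whose interval, -0.16 to 0.27, included no difference. In stem and multipotent cells Mtmr9 stood at 69.2 CPM in KI and 7.11 CPM in WT, a log2 ratio of 3.28 (2.53 to 4.13). In lymphoid-primed cells it stood at 68.1 CPM in KI and 9.12 CPM in WT, a log2 ratio of 2.90 (2.34 to 3.50) that was 1.82 with KI cells placed on clusters made from WT cells alone. The ratios were 1.45 (0.66 to 2.32) in megakaryocyte and 1.82 (1.38 to 2.26) in monocyte cells. Basophil and mast cells had 16 UMIs in KI and 2 UMIs in WT, a log2 ratio of 3.49 (1.40 to 6.65) that was 1.68 (-0.04 to 3.77) under a stricter cell filter and so no longer excluded no difference. In neutrophil cells, with 14 UMIs in KI and 28 UMIs in WT, the log2 ratio was 0.68 (-0.36 to 1.65).

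In WT the 7 classes held Mtmr9 at 1.62 to 10.97 CPM, with erythroid and megakaryocyte cells highest and not apart. In KI, by contrast, stem and multipotent, lymphoid-primed, megakaryocyte and monocyte cells stood above erythroid cells. KI megakaryocyte cells were at 29.7 CPM (22.1 to 39.0) and monocyte cells at 22.7 CPM (18.2 to 27.9). KI erythroid cells were at 11.4 CPM (10.2 to 12.7). The log2 ratio was smaller in erythroid cells than in the other named classes together by 2.38 (erythroid minus other -2.38, -2.72 to -2.05). A UMI was found in 22.1% of KI and 3.34% of WT stem and multipotent cells, in 30.8% of KI and 7.58% of WT lymphoid-primed cells, and in 9.64% of KI and 14.7% of WT erythroid cells. The lower KI share in erythroid cells went with the lower depth there: thinned to 2000 UMIs, the expected shares were 2.12% in KI and 2.06% in WT erythroid cells, but 13.6% in KI and 1.38% in WT stem and multipotent cells.

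Gm6133 (ENSMUSG00000090451, chr18:78349754-78350701, plus strand) is a retrocopy of the ribosomal protein gene Rpl17 that lies within Slc14a2, on the opposite strand. It was higher in KI in all 7 classes, with log2 ratios from 1.04 in megakaryocyte to 2.36 in basophil and mast cells. Over all cells it stood at 36.6 CPM in KI and 11.2 CPM in WT, a log2 ratio of 1.71 (1.58 to 1.84). Levels differed little between classes within a library, from 28.5 to 43.6 CPM in KI and from 7.28 to 13.8 CPM in WT. The ratio was slightly smaller in erythroid cells than in the other named classes together (erythroid minus other -0.32, -0.61 to -0.04). A UMI was found in 23.4% of KI cells and 11.97% of WT cells, and after thinning to 2000 UMIs in 7.28% of KI and 2.18% of WT cells. The Gm6133 transcript is 92.1% identical to Rpl17 over 629 bases, and 28 genes share a stretch of 100 bases or more at 90% identity or above, so its level is uncertain. Rpl17 had 195816 UMIs in KI and 219683 UMIs in WT, a log2 ratio of 0.39 (0.39 to 0.40), and was higher in KI in all 7 classes by 0.29 to 0.52. The ratio of Gm6133 exceeded that of Rpl17 in each class, though in megakaryocyte cells its interval, 0.30 to 1.83, reached the Rpl17 ratio of 0.31.

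Usp50 (ENSMUSG00000027364, chr2:126709096-126783470, minus strand), a member of the ubiquitin-specific protease family, was lower in KI in all 7 classes by similar amounts, with log2 ratios from -2.92 in stem and multipotent to -2.22 in megakaryocyte cells. KI erythroid cells had 537 UMIs, or 17.8 CPM, against 3958 UMIs, or 109 CPM, in WT erythroid cells, a log2 ratio of -2.62 (-2.75 to -2.49). The difference between erythroid and other named cells was 0.12, and its interval of -0.16 to 0.41 included 0. In both libraries the lowest levels were in basophil and mast cells, at 5.66 CPM in KI and 34.8 CPM in WT, and stem and multipotent cells, at 5.45 CPM in KI and 41.3 CPM in WT. A UMI was found in 11.03% of KI cells (10.2% to 11.9%) and 51.4% of WT cells (50.1% to 52.8%), and after thinning to 2000 UMIs in 2.50% of KI and 14.3% of WT cells.

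The Usp50 counts may hold reads of another gene. In 1 of its 5 annotated transcripts, the last of 9 exons holds 382 bases (chr2:126709186-126709567) that are 99.7% identical to Polr2l (chr7:141471860-141475132), which encodes a small subunit shared by the nuclear RNA polymerases. The stretch ends 90 bases from the transcript's 3' end, the part that a 3' kit reads. Reads from it could thus have been counted for either gene or for neither, and both levels are uncertain. Polr2l had 1278 UMIs in KI and 4886 UMIs in WT, a log2 ratio of -1.37 (-1.46 to -1.29), and was lower in KI in all 7 classes by log2 ratios of -1.79 to -0.75. Usp8, which overlaps Usp50 on the opposite strand, had 1821 UMIs in KI and 2141 UMIs in WT, a log2 ratio of 0.33 (0.24 to 0.42).

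**Figure D2:**
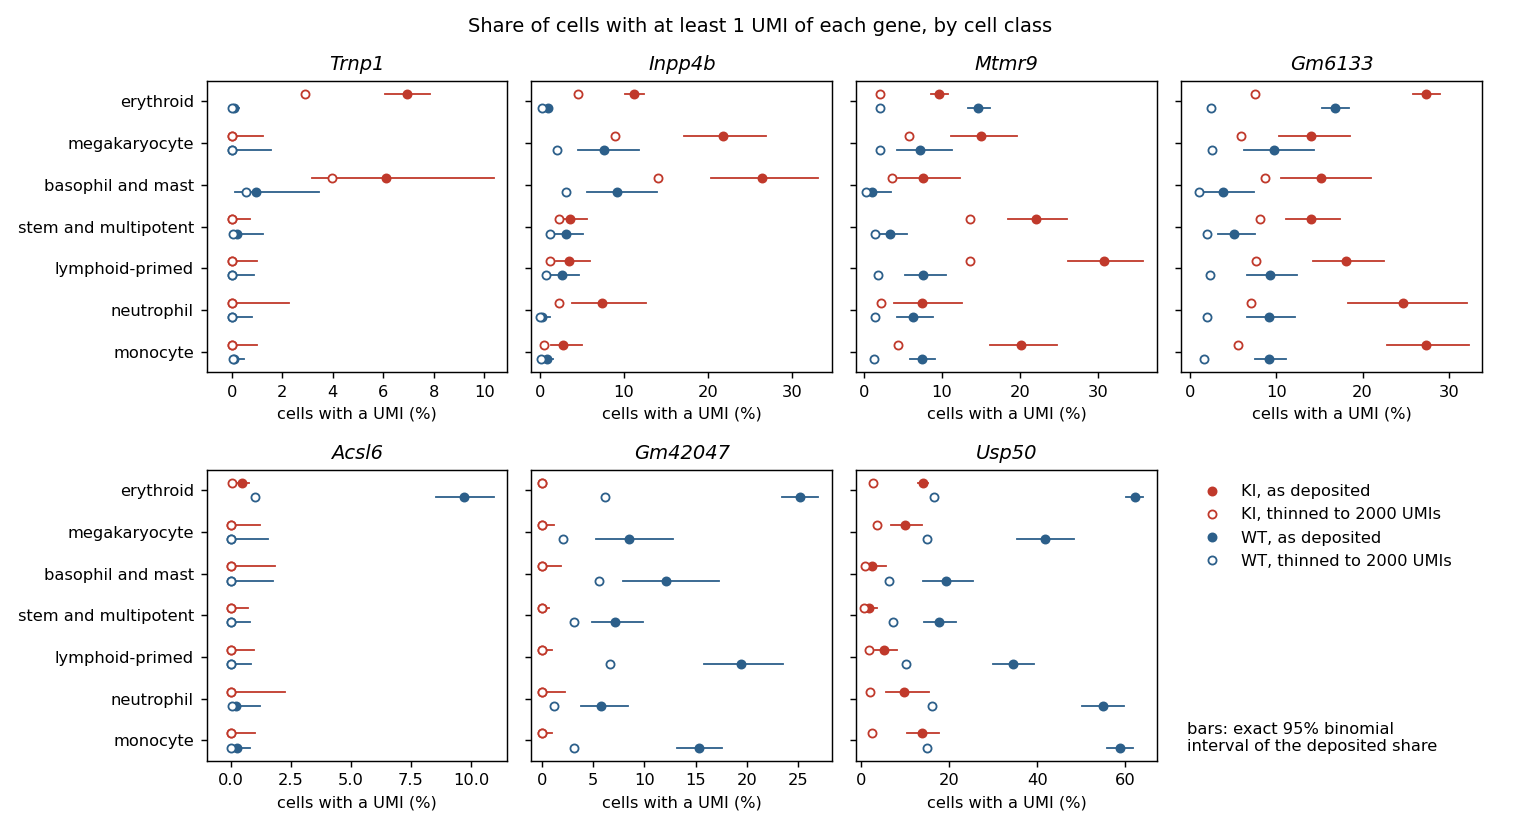
Share of cells, in percent, with at least 1 UMI of each gene in 7 cell classes, as deposited (filled points, exact 95% binomial interval) and with every cell thinned to 2000 UMIs (open points, expected value), for KI above WT. Thinned shares of Mtmr9 in erythroid cells were 2.12% in KI and 2.06% in WT, while those of Usp50 were 2.89% in KI and 16.6% in WT.

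Class by class, the 7 genes fell into 3 patterns. Gm42047, Gm6133 and Usp50 differed in every class, Trnp1 and Acsl6 where erythroid or basophil and mast cells carried them, and Inpp4b and Mtmr9 in 5 classes each, which for Mtmr9 left out erythroid cells. In erythroid cells 3 of the 7 were higher in KI, as were 31.2% of 12134 genes measured there, and 3 were lower, as were 19.7%. In megakaryocyte cells 3 of 5 measured were higher (7.4% of all genes) and 2 lower (6.14%), and in basophil and mast cells 4 of 6 were higher (8.07%) and 2 lower (6.09%). In stem and multipotent cells 2 of 5 were higher (8.11%) and 2 lower (6.5%), and in lymphoid-primed cells 2 of 5 were higher (8.12%) and 2 lower (7.36%). In neutrophil cells 2 of 5 were higher (12.0%) and 2 lower (5.96%), and in monocyte cells 3 of 5 were higher (15.9%) and 2 lower (9.11%). Since the genes were chosen on these libraries, nothing is read from these counts.

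Within the erythroid class the libraries filled different clusters, so stage was looked at in each library. Most KI erythroid cells were in clusters 3 (1454 cells), 1 (770), 4 (594) and 2 (292), and most WT ones in clusters 18 (834), 17 (673), 22 (550) and 2 (192). The blood group gene Rhd, used as a gauge of maturation, stood at 5.86 CPM in KI cluster 3 and 185 CPM in KI cluster 1, and at 9.61 CPM in WT cluster 22 and 233 CPM in WT cluster 18. Cluster 3 was led by Csrp3, Egr1 and Sox4, and cluster 22 by Apoe, Egr1 and Fosb. Of the 4 large KI clusters, Trnp1 was highest in the one lowest in Rhd, at 25.5 CPM (21.2 to 30.5), and lowest in the one highest in Rhd, at 1.95 CPM (1.30 to 2.80), with 8.58 CPM in cluster 2 and 14.0 CPM in cluster 4. Inpp4b went the same way in KI, with 44.4 CPM in cluster 3 and 5.10 CPM in cluster 1. Acsl6 went the other way in WT, with 0 UMIs in cluster 22, 7.55 CPM in cluster 17 and 9.33 CPM in cluster 18, and in KI 14 of its 15 UMIs were in cluster 1, the cluster highest in Rhd. Usp50 was higher where Rhd was higher in WT, at 51.8 CPM in cluster 22 and 123 CPM in cluster 18, and stood at 8.58 CPM in KI cluster 3 and 19.9 CPM in KI cluster 1. Mtmr9 varied little, from 9.21 to 12.6 CPM over the 4 large KI clusters and from 9.41 to 11.3 CPM over the 4 large WT clusters.

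**Figure D3:**
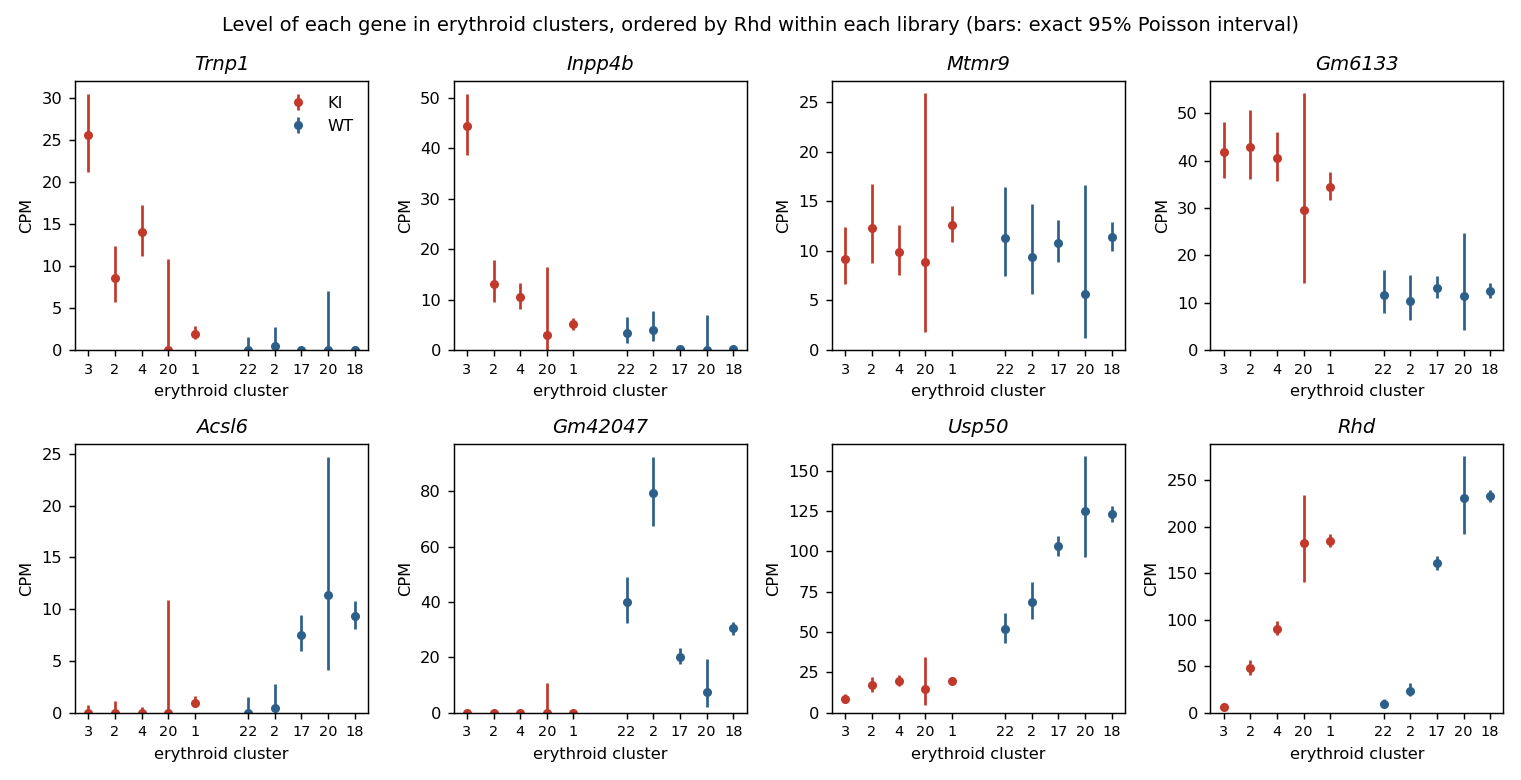
Level in CPM of the 7 genes and of Rhd in each erythroid cluster with at least 50 cells of a library, KI clusters left of WT clusters and each ordered by its Rhd level, with exact 95% Poisson intervals as bars. Trnp1 and Inpp4b were highest in KI cluster 3, at 25.5 and 44.4 CPM, and Acsl6 reached 9.33 CPM in WT cluster 18 and 0.94 CPM in KI cluster 1.

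KI cells were also placed on clusters made from WT cells alone, each by its 15 nearest WT cells with no limit on distance. A KI cell was thus placed even where no WT cell was much like it, and likeness in stage was not tested. The placing gave 6 erythroid clusters, 5 of them with at least 100 cells of each library. In the largest, with 1363 KI cells and 633 WT cells, Trnp1 had 119 UMIs in KI and 0 UMIs in WT, and Inpp4b 208 UMIs in KI and 7 UMIs in WT. Trnp1 had 13 to 119 UMIs in KI and 0 or 1 UMI in WT in each of these 5. Inpp4b was at 4.38 to 48.6 CPM in KI and 0 to 2.49 CPM in WT across them. Acsl6 was at 0 to 1.22 CPM in KI and 0 to 11.9 CPM in WT. The log2 ratios of Gm6133 ran from 1.25 to 1.86, those of Usp50 from -2.70 to -2.27 and those of Mtmr9 from -0.23 to 0.17, and the interval of Mtmr9 included no difference in each of the 5. The smallest cluster, with 57 KI cells and 87 WT cells, had no UMI of Trnp1 in either library, while Inpp4b had 1 UMI in KI and 0 UMIs in WT and Acsl6 0 UMIs in KI and 6 UMIs in WT.

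The position of the genes was not used to choose them, and few of their neighbours differed by much. Within 500 kb of the 7 genes, 53 genes had at least 100 UMIs in 1 library or the other, and the interval lay wholly past 2-fold for 2 of them, against 2.16% of all 10598 genes. The first was Xkr6, 62.5 kb from Mtmr9, a member of the XK-related family of membrane proteins, with 241 UMIs in KI and 28 UMIs in WT and a log2 ratio of 3.67 (3.1 to 4.29). Unlike Mtmr9, Xkr6 was higher in KI erythroid cells, with 126 UMIs in KI and 15 UMIs in WT (3.34, 2.56 to 4.21), and it was also higher in stem and multipotent cells, with 45 UMIs in KI and 9 UMIs in WT (2.62, 1.57 to 3.83). The second was Hmgn2, which encodes a nucleosome-binding protein, 466 kb from Trnp1, lower in KI with 3930 UMIs in KI and 13826 UMIs in WT (-1.25, -1.31 to -1.20). In the windows of the other 5 genes no measured neighbour had an interval wholly past 2-fold, among them Klhdc4, 3.7 kb from Gm42047, at 20.2 CPM in KI and 31.3 CPM in WT (-0.63, -0.75 to -0.52), and Trpm7, 8.1 kb from Usp50, at 58.7 CPM in KI and 48.9 CPM in WT (0.26, 0.19 to 0.34). The median log2 ratio of the 53 neighbours was 0.02.

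**Figure D4:**
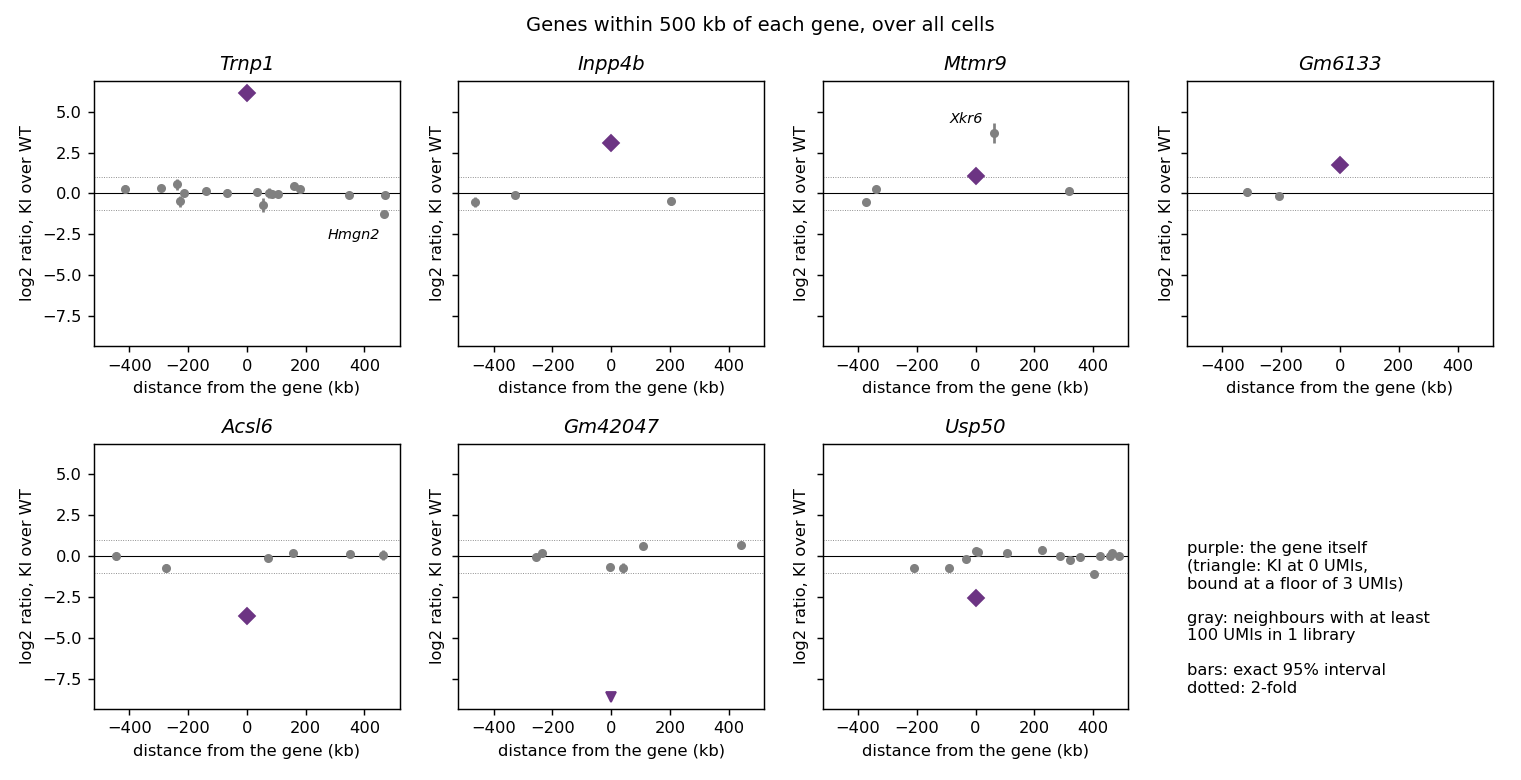
Log2 ratio over all cells, KI over WT, of each gene (purple) and of its neighbours with at least 100 UMIs in 1 library (gray, exact 95% interval), by distance in kb. Xkr6 at 3.67 and Hmgn2 at -1.25 were the neighbours with an interval wholly past 2-fold, and the triangle for Gm42047 is a bound at a floor of 3 UMIs.

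Relatives of Acsl6, Inpp4b and Usp50, each of which was past 4-fold in erythroid cells, and of Mtmr9 were looked at in the same cells. Among 6 acyl-CoA synthetases measured, other than Acsl6, 4 were higher in KI and 2 lower, and the median log2 ratio was 0.36, beside 0.06 for all 12134 genes measured, of which 31.2% were higher and 19.7% lower. Acsl1 stood at 94.0 CPM in KI and 77.6 CPM in WT (0.28, 0.20 to 0.35), and Acsl5, the most abundant, at 157 CPM in KI and 165 CPM in WT (-0.08, -0.13 to -0.02). Among 10 myotubularins, other than Mtmr9, 0 were higher and 1 lower, and the median was 0.01. The lower one was Sbf1, at 20.1 CPM in KI and 23.9 CPM in WT (-0.25, -0.40 to -0.10). Among 13 phosphoinositide phosphatases, other than Inpp4b, 4 were higher and 0 lower, and the median was 0.14. Inpp4a, the closest relative of Inpp4b, stood at 2.82 CPM in KI and 2.24 CPM in WT (0.33, -0.12 to 0.79). Among 31 ubiquitin-specific proteases, other than Usp50, 14 were higher and 3 lower, and the median was 0.08. Usp15 stood at 137 CPM in KI and 139 CPM in WT (-0.02, -0.08 to 0.04). No member of these lists with at least 100 UMIs had an interval wholly past 2-fold.

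The genes most like each of the 7 in level were found over 14 points, the 7 classes in each library, among 10344 genes, by Spearman's correlation of log2(CPM + 1). The points share 2 libraries and their depths, so the values are a description. For Trnp1 the closest were Zfp623 (0.87) and Sowaha (0.87), and for Inpp4b they were Gatad1 (0.92) and Slc22a3 (0.89). The closest to Acsl6 were Trim10 (1.0) and Cecr2 (0.85), but Trim10, with 92 UMIs in KI and 167 UMIs in WT, had a log2 ratio of -0.30 (-0.68 to 0.08) over all cells. Beyond erythroid cells Acsl6 had only 1 UMI in WT neutrophil and 3 UMIs in WT monocyte cells. Its other points were at 0, so the 1.0 rests on few points, and Trnp1 was also at 0 in most points. Mtmr9 was closest to Sde2 (0.92) and Smc1a (0.92), and Gm6133 to Cdc5l (0.93) and Cdk5rap1 (0.93). For Gm42047 the closest were the histone genes Hist1h4h (0.91) and Hist1h2ap (0.90). With Gm42047 at 0 in all 7 KI points, a gene like it over both libraries has to be lower in KI. Hist1h4h stood at 13.7 CPM in KI and 37.9 CPM in WT, and Hist1h2ap at 49.1 CPM in KI and 711 CPM in WT. Usp50 was closest to Erh (0.98), which encodes a small conserved nuclear protein, and to Gm10076 (0.97). With Usp50 lower in every KI point than in any WT point, a gene ranked like it also has to be lower in KI. Erh stood at 71.4 CPM in KI and 204 CPM in WT, and Gm10076 at 49.1 CPM in KI and 422 CPM in WT.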

How the data were processed

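The authors deposited, per the file headers, unnormalized UMI counts for each gene in each barcode from Cell Ranger 3.1.0. The build was mm10, as the submitters' processing notes name it. The gene annotation, the choice of barcodes and the use of strand in counting are not given in the sources used here. Positions come from GENCODE M21, in which 31011 of the 31053 gene IDs were found.

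The filter required 500 genes and 1000 UMIs in a barcode and allowed up to 10% of mitochondrial UMIs; 11.4% of KI and 23.0% of WT barcodes were over the mitochondrial limit. Scrublet in scanpy 1.11.5 marked 2.57% of WT cells as doublets. It marked 0.0692% of KI cells, under the minimum of 0.5%, so the top 5% of KI scores were removed. KI and WT cells were clustered jointly, with no correction for library (2000 variable genes, 30 principal components, 15 neighbours, Leiden resolution 1), with the 7 genes, Gata1, sex-linked, mitochondrial and ribosomal protein genes left out. A cluster took the class for which the largest share of markers, and at least 30%, lay at or above the midpoint (log2 scale) between the lowest and the highest cluster, and 358 KI cells and 224 WT cells stayed unnamed.

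UMIs were summed per library and class. Ratios are KI over WT of CPM on the log2 scale, with exact conditional binomial intervals, and are given where 1 library had at least 10 UMIs; levels have exact Poisson intervals and shares exact Clopper-Pearson intervals, all at 95%. Where a library had 0 UMIs, 3 UMIs served as its floor, and the limit beside a share of 0 is likewise 3 cells of the total, not the Clopper-Pearson bound. Thinned shares are expected values, with cells under 2000 UMIs left out (299 in KI and 107 in WT). No test across samples was possible with 1 library per genotype. Ratio intervals were checked on simulated counts that held counting error only, so spread between cells, animals or libraries was not tested. Scaling factors from edgeR 4.0.16 and DESeq2 1.42.0 served as alternatives only. Copies were searched among GENCODE M21 transcripts at 90% identity over 100 bases.

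The genes, gene lists and alternatives were chosen with earlier results of these data known. Named genes are the 7, their nearest measured neighbours on each side, neighbours past 2-fold, the 2 genes most like each, and up to 3 list members with the most UMIs. The text gives part of them, and Inpp4a, Csrp3, Egr1, Sox4, Apoe, Fosb, Brip1os, Gm47761, Gm48362, Sos2 and Gm20388 were named after their values were seen. The values of 1 member of these lists are not reported here.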

Additional observations from a re-analysis of the deposited data

How the results depend on the processing

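Over all cells, 51 of 54 values under alternative settings stayed within the counting interval of the reported ratio, 3 moved out of it and 0 changed sign. With each cell weighted equally the log2 ratio of Inpp4b was 2.75 and that of Mtmr9 1.57, against 3.06 and 1.09 as reported, and with every cell thinned to 2000 UMIs that of Mtmr9 was 1.56. Both settings give deep erythroid cells less weight than the summed counts do. By class, 393 of 404 values stayed within the interval and 11 moved. Where the reported interval excluded no difference, 0 changed sign. The log2 ratio of Mtmr9 in erythroid cells, 0.05 with an interval that included no difference, went as low as -0.02. Of 38 measured pairs of gene and class, 34 excluded no difference as reported, and 32 to 36 did so under the alternatives. Thinning moved 25 of 28 shares of cells with a UMI, as fewer UMIs per cell must, and the order of KI and WT over all cells was the same for each gene. With a minimum of 20 UMIs in place of 100, the number of genes past 4-fold was 90, against 52, because more genes were counted. The other scalings shifted ratios by at most 0.08 (log2), except TMM and DESeq2 size factors in neutrophil cells, by -0.12 and -0.11. Gm42047 gave no value with equal weights or thinning, since KI had 0 UMIs. No paired analysis was possible because there is 1 library per genotype. Depth limits the statements on small classes: a count of 0 in KI neutrophil cells allows up to 1.85% of them (3 cells of the total) to hold a UMI.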

Other observations

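Over a window of 1 Mb, in place of 500 kb, 3 of 121 measured neighbours were past 2-fold. The added one was Gpx3, 538 kb from Acsl6, which encodes a secreted glutathione peroxidase, with 21 UMIs in KI and 128 UMIs in WT and a log2 ratio of -2.05 (-2.79 to -1.37). Its UMIs were mostly in monocyte cells, with 13 in KI and 85 in WT, where Acsl6 had 0 UMIs in KI and 3 UMIs in WT. Inpp4b and Gm42047 both lie on chromosome 8 but differed in opposite directions.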
